A study of Mus musculus with 28 samples.

Results

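The genes described here move pyruvate into mitochondria and decide its first step there. They are the carrier subunits Mpc1 and Mpc2, the pyruvate dehydrogenase subunits Pdha1, Pdhb and Dlat, the pyruvate dehydrogenase kinases Pdk1, Pdk2, Pdk3 and Pdk4, and pyruvate carboxylase, Pcx. These 10 genes were chosen by name, with the knockout and control values of these libraries known, out of 15885 genes that passed the filter on low values in at least 1 depot. The difference between knockout and control was among the values behind the choice, so for these genes it is given as a description without a p-value. In all, 28 bulk RNA-seq libraries of mouse fat were used, 13 from mice with an adipose knockout of Fgf13, a fibroblast growth factor family member that is not secreted, and 15 from controls, which the labels give as WT. The constitutive knockout was sampled in brown fat (BAT, 2 knockout and 3 control libraries) and in white fat from under the skin (sWAT, 3 and 3), and the inducible knockout in white fat from under the skin (isWAT, 2 and 3) and around the epididymis (ieWAT, 3 and 3). All mice of these 4 sets, controls included, were obese, with 20 weeks of high fat feeding. For another epididymal set (eWAT, 3 and 3) neither the kind of knockout nor the diet is stated. The promoter driving the recombinase, the age of the mice, and whether libraries came from separate animals or depots shared animals are unstated in the labels, so the spread within a group may be technical.

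Pyruvate from glycolysis crosses the inner mitochondrial membrane through a carrier built from Mpc1 and Mpc2, and neither subunit forms the working carrier alone. Inside, the pyruvate dehydrogenase complex turns it into acetyl-CoA for the citric acid cycle and, through citrate, for fatty acid synthesis, while pyruvate carboxylase turns it into oxaloacetate. The 4 kinases switch the complex off by phosphorylating its alpha subunit, Pdha1. Pdk4 is best known as the kinase made in fasting and with fat as fuel, and Pdk1 as a target of the hypoxia factor. White adipocytes use the carboxylase to supply citrate and glycerol for fat storage, and brown adipocytes burn both glucose and fatty acids for heat.

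The stretches of 250 bases before an annotated start of Mpc1, Mpc2, Pdhb and Pdk4 are shown because Mpc1 and Mpc2 encode the carrier, Pdhb was the member whose level followed Mpc1 most closely across libraries, and Pdk4 differed most between brown and white fat. They are RefSeq sequences of build GRCm38.p6, written 5′ to 3′ on the gene's strand, with CCAAT or its reverse complement ATTGG in capitals.
Mpc1, chr17:8283537-8283786, plus strand: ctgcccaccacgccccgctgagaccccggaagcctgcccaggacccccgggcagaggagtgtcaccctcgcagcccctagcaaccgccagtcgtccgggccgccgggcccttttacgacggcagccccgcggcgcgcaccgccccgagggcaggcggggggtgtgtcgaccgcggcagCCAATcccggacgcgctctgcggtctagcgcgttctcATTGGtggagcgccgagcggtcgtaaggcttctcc
Mpc2, chr1:165461010-165461259, plus strand: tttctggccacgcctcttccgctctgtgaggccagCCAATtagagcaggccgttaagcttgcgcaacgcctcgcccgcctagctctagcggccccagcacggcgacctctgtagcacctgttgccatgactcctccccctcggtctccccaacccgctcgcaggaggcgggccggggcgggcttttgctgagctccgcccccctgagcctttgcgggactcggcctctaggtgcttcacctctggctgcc
Pdhb, chr14:8172993-8173242, minus strand: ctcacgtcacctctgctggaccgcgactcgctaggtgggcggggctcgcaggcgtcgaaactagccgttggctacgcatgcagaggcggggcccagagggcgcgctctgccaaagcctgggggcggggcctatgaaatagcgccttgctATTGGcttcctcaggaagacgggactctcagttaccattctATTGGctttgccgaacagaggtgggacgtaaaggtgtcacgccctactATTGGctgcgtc
Pdk4, chr6:5496279-5496528, minus strand: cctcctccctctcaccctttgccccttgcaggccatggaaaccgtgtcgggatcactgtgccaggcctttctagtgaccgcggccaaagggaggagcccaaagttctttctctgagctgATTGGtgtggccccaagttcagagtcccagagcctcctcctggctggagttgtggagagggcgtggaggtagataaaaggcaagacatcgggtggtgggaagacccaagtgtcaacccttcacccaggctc
Mpc1 has a further annotated start downstream, whose stretch (chr17:8284204-8284453, not shown) held 18 CpG and no CCAAT match. The Mpc1 stretch shown was 73.6% G and C and held 32 CpG, more than 95.4% of annotated promoters, whose median was 6. Mpc2 held 19 CpG, Pdhb 20 and Pdk4 6, so that Pdk4 sat at the median. The letters CCAAT, read on both strands in the 250 bases before each start, were in 7 of the 14 annotated stretches of the 10 genes. They were in 33.8% of 32817 promoters, read in the same way. Bases after the start were not searched for any of the letters given here. Pdhb had 3 such matches, first bases at 101, 60 and 12 before the start, and Mpc1 had 2, at 72 and 35 before it. The letters ACGTG, the core bound by the hypoxia factor, were in 4 of the 14 stretches (Pdk2, Pdhb, Pcx and Pdk3) and in 16.6% of promoters. An estrogen-related receptor element, TCAAGGTCA, and a forkhead element, GTAAACA, were in 0 of the 14, against 0.387% and 3.16% of promoters.

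Depth ran from 14951333 to 21246286 reads per BAT library, 13490948 to 21241811 per sWAT library, 37700750 to 48812592 per isWAT library and 29857189 to 43624353 per ieWAT library, and that of eWAT is unknown. Values are CPM (reads scaled to the library total) in those 4 sets and FPKM in eWAT. Fgf13 averaged 27.1 ± 5.61 CPM in ieWAT knockout and 44.3 ± 6.26 CPM in ieWAT control libraries, 33.3 ± 2.83 and 60.3 ± 8.18 CPM in isWAT knockout and control libraries, 63.2 ± 20.5 and 109.5 ± 3.63 CPM in sWAT knockout and control libraries, and 1.06 ± 1.15 and 9.07 ± 7.62 CPM in BAT knockout and control libraries (SD), with no overlap of the groups in these 4 sets. In eWAT it averaged 22.6 ± 4.76 FPKM in the libraries labelled knockout and 20.3 ± 7.39 FPKM in control libraries (SD, n = 3 each). The eWAT groups overlapped, so Fgf13 neither bore out nor contradicted the eWAT labels. Mean log2 levels of 10 adipocyte genes were 9.29 and 8.01 in the same groups, and Fgf13 was not set against them. Every eWAT direction below is that of libraries labelled knockout. The adipocyte gene Adipoq was at 412 to 3172 in all libraries, and the brown fat gene Ucp1 at 4950 to 7238 CPM in BAT against at most 7.13 in any white fat library. In sWAT, 16 skeletal muscle genes, of which 4 passed the filter on low values, summed to 58.1, 2786 and 3650 CPM in knockout replicates 1, 2 and 3. Their sums were 53.4 to 65.2 CPM in sWAT control libraries. Ckm, the muscle creatine kinase, was at 0 CPM in sWAT knockout replicate 1 and at 341 and 408 CPM in replicates 2 and 3, against 0 to 0.074 CPM in controls. In BAT, 16 muscle genes summed to 52 and 8492 CPM in knockout libraries, against 636, 1791 and 59.3 CPM in control libraries. Muscle expresses the 10 genes too, and its part in their values was not tested. Leaving such libraries out moved 7 of 10 changes in sWAT and 6 of 10 in BAT by at least the pooled SD within groups. Changes without them are given below only for Mpc1, Mpc2 and Pdk4 in sWAT and for Mpc1, Pdha1, Pdhb and Dlat in BAT.

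Mpc1 was higher on average in knockout libraries of all 5 depots, and its groups did not overlap in isWAT, sWAT, BAT and eWAT. In BAT, Mpc1 stood at 762 and 685 CPM in knockout libraries, against 496, 484 and 401 CPM in control libraries. This was 1.57 times the control mean, a change of 0.65 on the log2(value + 1) scale with a standard error (SE) of 0.14 from limma. Both brown fat knockout libraries lay well above the highest control. In eWAT, Mpc1 had 219, 256 and 252 FPKM in libraries labelled knockout, against 160.4, 155 and 175 FPKM in control libraries (log2 change 0.56, SE 0.10). The eWAT libraries labelled knockout were 1.48 times the control mean, with a clear gap between the groups.

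The subcutaneous depots gave smaller differences in the same direction. In isWAT, Mpc1 had 184 and 174 CPM in knockout libraries, against 131, 142 and 147 CPM in control libraries (log2 change 0.35, SE 0.08). In sWAT it had 234, 217 and 232 CPM in knockout libraries, against 207, 196 and 192 CPM in control libraries (0.20, SE 0.07). The sWAT groups were separated by less than 10 CPM, and the difference was 0.24 when the 2 knockout libraries with muscle transcripts were left out. In ieWAT, the remaining depot, Mpc1 had 134, 160.2 and 117 CPM in knockout libraries, against 125, 109 and 119 CPM in control libraries (0.21, SE 0.14). The groups overlapped there, because knockout replicate 3 lay below 2 of the 3 controls. That library also had the lowest summed level of 10 adipocyte genes of the depot, 13794 CPM, and the highest of 12 macrophage genes, 11000.3 CPM; the part of either in this value was not tested. In bulk tissue, fewer cells of a type and less RNA per cell cannot be told apart.

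**Figure D1:**
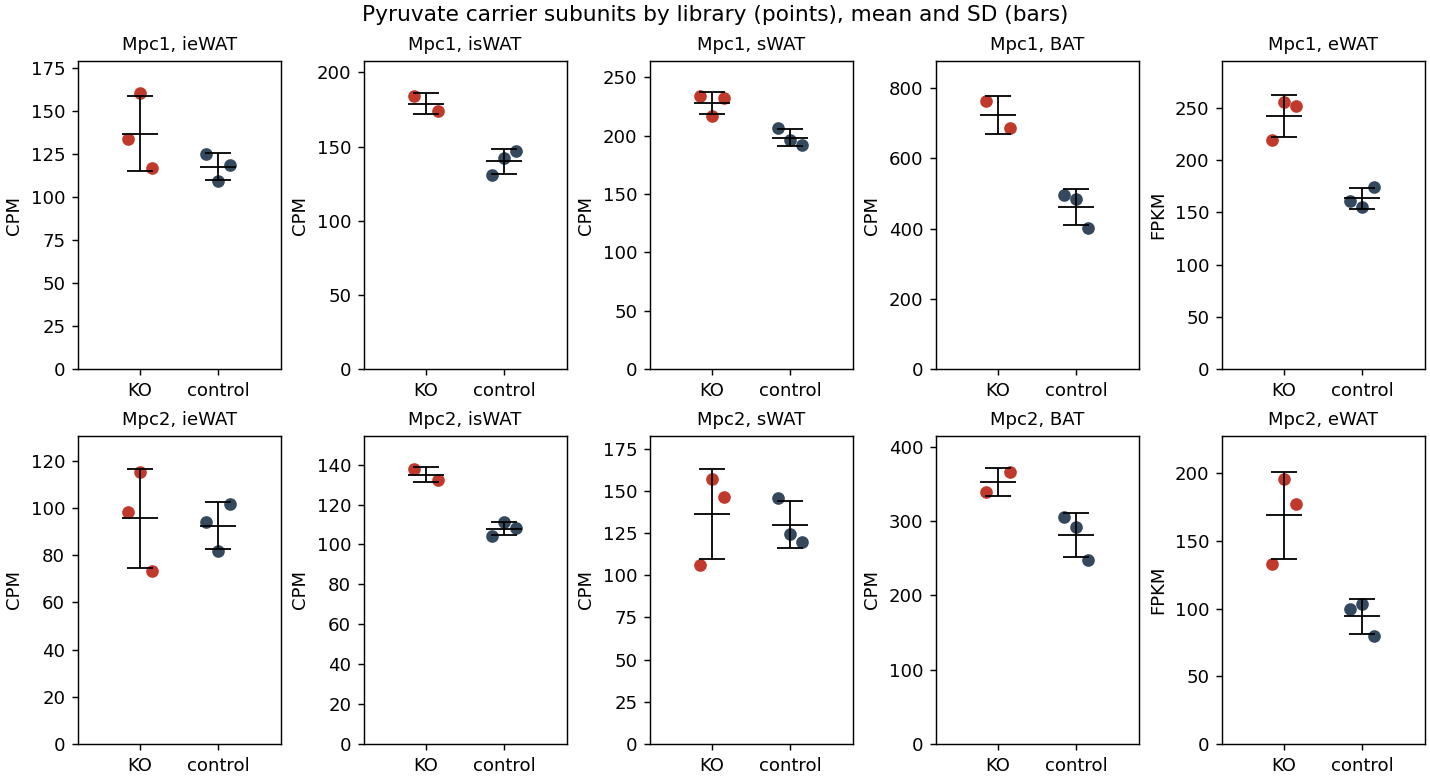
Mpc1 (upper row) and Mpc2 (lower row) in each library (points) with the group mean and SD (bars), knockout left of control, in CPM for ieWAT, isWAT, sWAT and BAT and in FPKM for eWAT, each axis starting at 0. Mpc1 groups are apart in every depot but ieWAT, and Mpc2 groups are apart in isWAT, BAT and eWAT.

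Mpc2, the carrier's other subunit, separated the groups in fewer depots. It had 133, 196 and 177 FPKM in eWAT libraries labelled knockout, against 100.1, 103 and 79.5 FPKM in control libraries (log2 change 0.82, SE 0.17). In isWAT it had 138 and 132 CPM in knockout libraries, against 104, 111 and 108 CPM in control libraries (0.32, SE 0.08). In BAT it had 339 and 366 CPM in knockout libraries, against 305, 292 and 248 CPM in control libraries (0.33, SE 0.13). Knockout libraries, and libraries labelled knockout in eWAT, were thus above every control of these 3 depots. In sWAT, Mpc2 had 106, 157 and 146 CPM in knockout libraries, against 146, 124 and 119.9 CPM in control libraries, and the one knockout library without muscle transcripts was the lowest of all 6. Without the other 2, the sWAT difference in Mpc2 was -0.29 on the log2 scale, against 0.05 with them. In ieWAT the means differed by 0.03 (SE 0.18).

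Because the subunits work together, their levels were also set against each other per kilobase of the longest principal transcript (FPKM in eWAT). The ratio of Mpc1 to Mpc2 was 2.40 and 2.00 in BAT knockout libraries, against 1.74, 1.77 and 1.73 in BAT control libraries. In sWAT it was 2.37, 1.48 and 1.70 in knockout libraries, against 1.52, 1.69 and 1.72 in control libraries. In eWAT it was 1.64, 1.30 and 1.42 in libraries labelled knockout, against 1.60, 1.50 and 2.20 in control libraries. In ieWAT it was 1.46, 1.49 and 1.70 in knockout libraries, against 1.42, 1.43 and 1.25 in control libraries, and in isWAT 1.43 and 1.41 in knockout libraries, against 1.34, 1.37 and 1.45 in control libraries. Mpc1 transcripts therefore outnumbered Mpc2 transcripts per kilobase in each library, and the groups were apart in BAT and ieWAT and overlapped in sWAT, isWAT and eWAT. Reads of the pseudogene Mpc1-ps came to at most 1.93% of its sum with Mpc1 in a library, in the sWAT set. Annotated exons of Mpc1 overlap the antisense gene 4930506C21Rik, and whether reads were counted by strand is not stated in the sources used here.

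The catalytic subunits of pyruvate dehydrogenase were higher in knockout libraries of BAT and in eWAT libraries labelled knockout, with no overlap. Pdha1, the alpha subunit that the kinases phosphorylate, had 1500.0 and 1282 CPM in BAT knockout libraries, against 954, 990.1 and 779 CPM in control libraries (log2 change 0.62, SE 0.15). Pdhb, the beta subunit, had 827 and 786 CPM in BAT knockout libraries, against 620.1, 572 and 452 CPM in control libraries (0.57, SE 0.16). Dlat, the acetyltransferase core, had 529.6 and 477 CPM in BAT knockout libraries, against 405, 399 and 325 CPM in control libraries (0.42, SE 0.14). The knockout libraries lay above the highest control for each subunit, by the least for Dlat. Without the 3 brown fat libraries that held muscle transcripts, 1 library a group remained and the differences were 0.95 for Pdha1, 0.87 for Pdhb, 0.70 for Dlat and 0.92 for Mpc1. For each of these genes that pair was the higher knockout library and the lowest control, the widest pairing possible. The larger differences therefore say nothing on the part of muscle.

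In eWAT, Pdha1 had 64.2, 73 and 73.8 FPKM in libraries labelled knockout, against 52.4, 54.4 and 46.6 FPKM in control libraries (log2 change 0.45, SE 0.10). Pdhb had 70.7, 90.3 and 87.5 FPKM in libraries labelled knockout, against 58.5, 61.4 and 60.9 FPKM in control libraries (0.44, SE 0.11). Dlat had 46, 56.3 and 60.2 FPKM in libraries labelled knockout, against 37.3, 40.8 and 30.5 FPKM in control libraries (0.57, SE 0.14). The 3 subunits were each above all controls in eWAT, as the carrier subunits were. Elsewhere the differences of group means were small: between -0.08 and 0.15 on the log2 scale in ieWAT, isWAT and sWAT for these 3 genes. The sWAT knockout libraries differed among themselves, however. Dlat had 116, 175 and 171 CPM in knockout replicates 1, 2 and 3, against 157 to 162 CPM in control libraries. Pdha1 had 317, 259 and 281 CPM, against 244 to 268 CPM in control libraries. Only replicate 1 was without muscle transcripts. Pdhb groups were apart in isWAT (158 and 147 CPM in knockout libraries, against 135 to 139 CPM in control libraries) and in sWAT (169 to 171 CPM in knockout libraries, against 157 to 167 CPM in control libraries). Pdha1 groups touched in isWAT, where the lower knockout library, 221.2 CPM, was just above the highest control, 221.0 CPM. Reads assigned to Pdha2, the copy of Pdha1 known from testis, reached 5.62 CPM in ieWAT, 3.70% of its sum with Pdha1, and at most 0.041 in the other depots; Pdha1 also overlaps Map3k15 on the opposite strand.

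Pyruvate carboxylase groups overlapped in brown fat, where those of the dehydrogenase subunits did not. Pcx had 544 and 520.4 CPM in BAT knockout libraries, against 573, 492 and 595 CPM in control libraries (log2 change -0.05, SE 0.12). The sign of this change turned to 0.15 with TMM scaling, which moved the median change of all genes in BAT from -0.18 to 0.00 and the change of Mpc1 to 0.86. The ratio of Pcx to Pdha1 per kilobase was 0.25 and 0.28 in BAT knockout libraries, against 0.42, 0.35 and 0.54 in BAT control libraries. In eWAT, by contrast, Pcx had the widest difference of the 10 genes, 174, 251 and 240.0 FPKM in libraries labelled knockout against 129, 135 and 82.3 FPKM in control libraries (log2 change 0.95, SE 0.23). Its eWAT ratio to Pdha1 was 2.71, 3.44 and 3.25 in libraries labelled knockout, against 2.46, 2.49 and 1.77 in control libraries. In sWAT, Pcx had 847, 1264 and 1149.9 CPM in knockout libraries, against 1206, 1375 and 1193 CPM in control libraries (log2 change -0.23, SE 0.15), with the low value again in knockout replicate 1. In ieWAT and isWAT the means differed by -0.03 and 0.06 on the log2 scale.

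**Figure D2:**
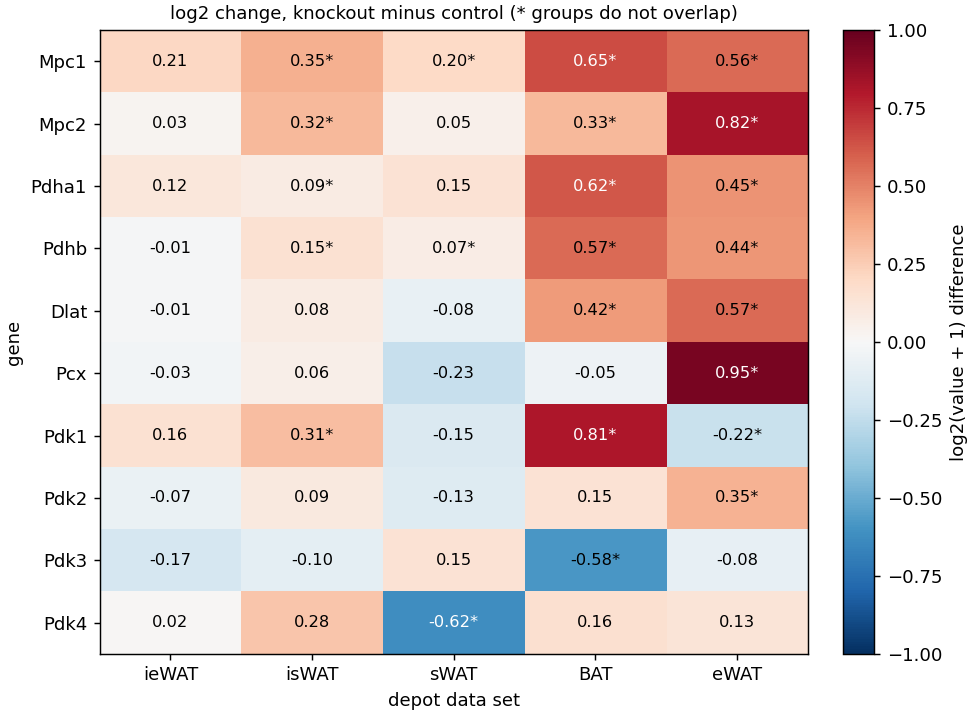
The log2(value + 1) difference, knockout minus control, of the 10 genes (rows) in the 5 depot sets (columns); red cells are higher and blue cells lower in knockout libraries, and a star marks groups without overlap. The Mpc1 row is positive in all 5 columns, Pdk1 is positive in BAT (0.81) and negative in eWAT (-0.22), and Pdk4 is lowest in sWAT (-0.62).

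The kinases differed in direction between genes and between depots. Pdk1 had 94.3 and 75 CPM in BAT knockout libraries, against 58.6, 47.5 and 38.9 CPM in control libraries (log2 change 0.81, SE 0.19), the widest difference of the 10 genes in brown fat. In isWAT, Pdk1 had 33 and 30.9 CPM in knockout libraries, against 23.1, 27 and 26.7 CPM in control libraries (0.31, SE 0.10). In eWAT, Pdk1 had 11.1, 11.6 and 12.2 FPKM in libraries labelled knockout, against 13.9, 14.8 and 12.6 FPKM in control libraries (-0.22, SE 0.08). Pdk1 was thus above all controls in BAT and isWAT and below all controls in eWAT, while in ieWAT and sWAT the groups overlapped.

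Pdk4 had 44.3, 79.3 and 82.1 CPM in sWAT knockout libraries, against 99.4, 107.9 and 99.6 CPM in control libraries (log2 change -0.62, SE 0.23). All 3 sWAT knockout libraries were below all controls, and the lowest was replicate 1, the one without muscle transcripts; with that library alone as the knockout group the difference was -1.19, and without it -0.34. Sums of 12 macrophage genes were also lowest there, at 1001, 2222 and 1538 CPM in sWAT knockout replicates 1, 2 and 3, against 2052 to 2532 CPM in control libraries, and their part in the Pdk4 values was not tested. Pdk4 groups overlapped in the other depots, where the changes ran from 0.02 in ieWAT to 0.28 in isWAT. In ieWAT the knockout libraries themselves spread widely, at 45.7, 135 and 58.3 CPM, against 68.2, 82.7 and 62 CPM in control libraries. Pdk2, the most broadly expressed kinase, had 22.2, 27.6 and 24.6 FPKM in eWAT libraries labelled knockout, against 21.1, 19.9 and 16.7 FPKM in control libraries (0.35, SE 0.12), and its groups overlapped in ieWAT, isWAT, sWAT and BAT. Pdk3 was the least abundant kinase in brown fat, at 0.984 and 1.47 CPM in knockout libraries, against 2.68, 1.50 and 2.94 CPM in control libraries (-0.58, SE 0.27). Its brown fat groups were apart as deposited and overlapped with TMM scaling, and a gene this low rests on few reads.

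**Figure D3:**
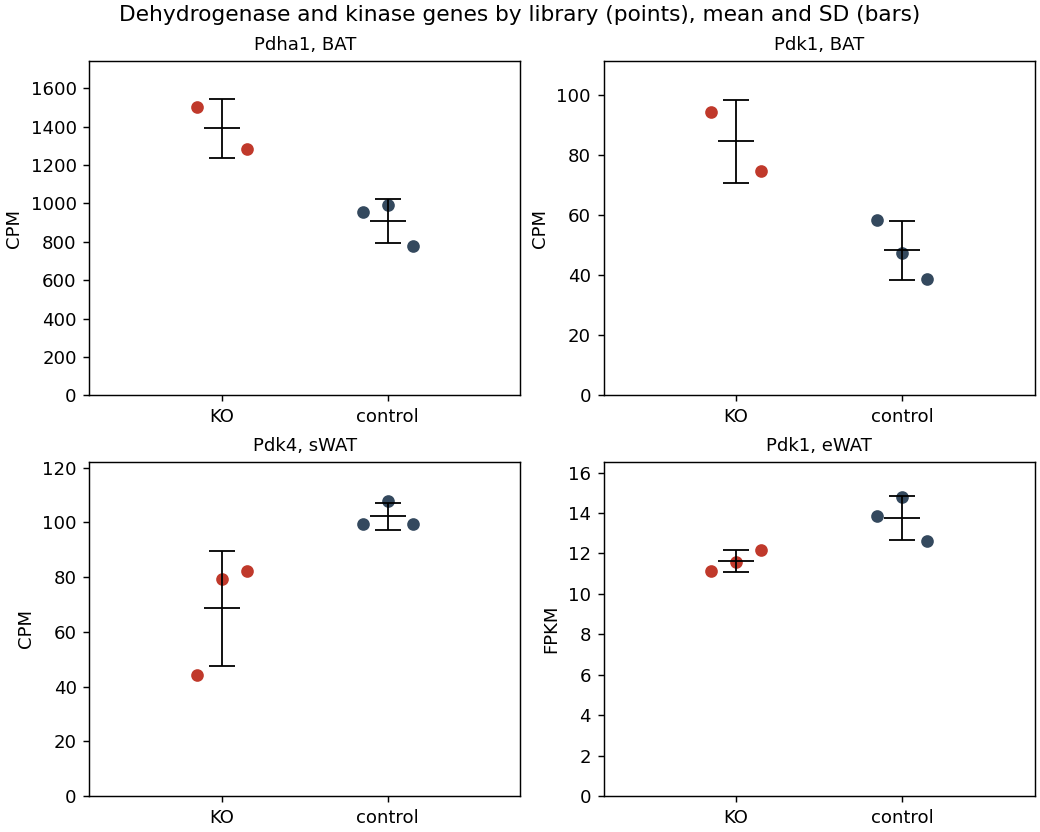
Pdha1 and Pdk1 in BAT, Pdk4 in sWAT and Pdk1 in eWAT, in each library (points) with the group mean and SD (bars), knockout left of control, in CPM or, for eWAT, FPKM. Pdk1 is 75 CPM or more in BAT knockout libraries and at most 12.2 FPKM in eWAT libraries labelled knockout, on opposite sides of their controls.

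Per kilobase, Pdk4 made up most of the kinase transcripts in brown fat, while in white fat Pdk2 was the largest part in 19 of 23 libraries and Pdk4 in the other 4. In BAT, Pdk4 was 74.9% and 69.4% of the summed kinase level in knockout libraries, against 65.4%, 76.3% and 76.1% in control libraries. In sWAT it was 28.2%, 37.7% and 40.7% in knockout libraries, against 43.0%, 44.3% and 44.9% in control libraries, so that each knockout library had a smaller Pdk4 share than each control. In eWAT, Pdk1 was 19.9%, 18.0% and 16.5% of the sum in libraries labelled knockout, against 22.3%, 22.6% and 25.1% in control libraries. The summed kinase level over that of Pdha1, their substrate, was 1.03 and 1.04 in BAT knockout libraries, against 1.12, 1.56 and 1.65 in control libraries. In sWAT the same ratio was 0.40, 0.66 and 0.59 in knockout libraries, against 0.78, 0.74 and 0.70 in control libraries. In eWAT it was 0.87, 0.88 and 1.00 in libraries labelled knockout, against 1.19, 1.21 and 1.08 in control libraries. The ratio was lower in each knockout library than in each control of these 3 depots. In isWAT it was 1.03 and 1.00 in knockout libraries, against 0.88, 1.08 and 0.93 in control libraries, which overlapped. The groups overlapped in ieWAT too, at 0.94, 1.39 and 1.09 in knockout libraries, against 1.01, 1.34 and 1.34 in control libraries. These are ratios of transcripts, not of proteins or of phosphorylation.

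**Figure D4:**
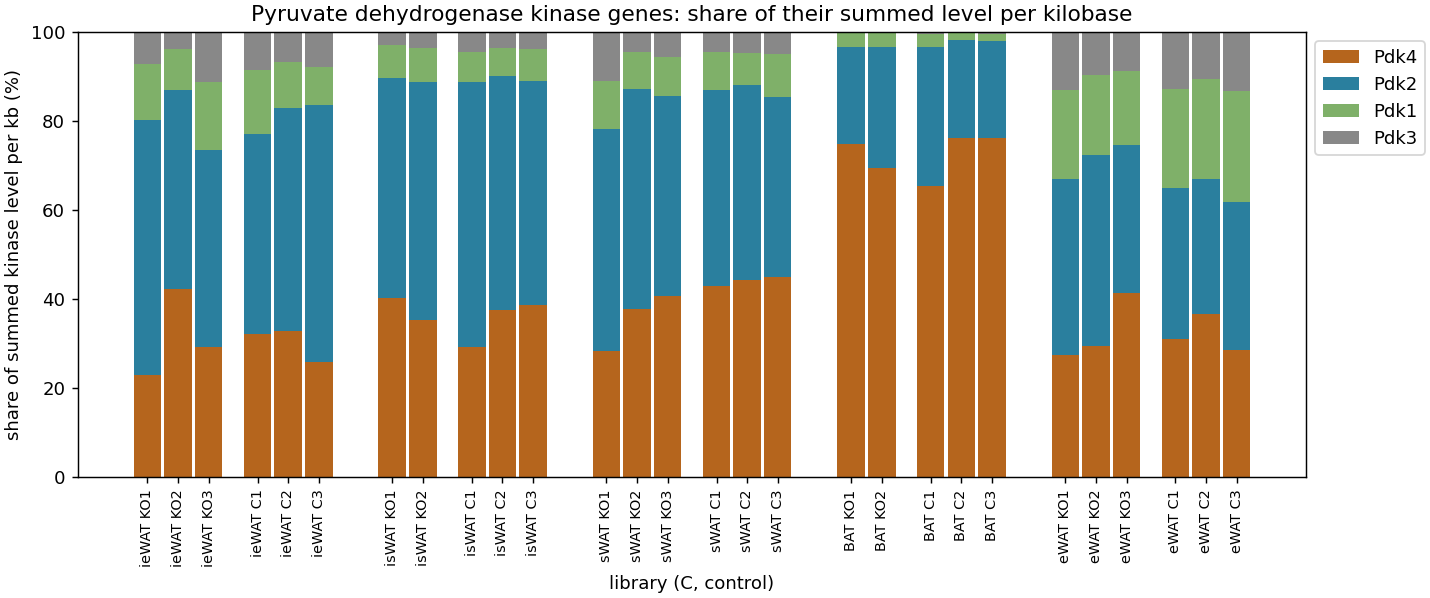
Share of each kinase gene in the summed level per kilobase of Pdk1, Pdk2, Pdk3 and Pdk4 (percent, stacked to 100) in each of the 28 libraries, knockout left of control (C) in each depot. Pdk4 takes 65.4% to 76.3% in BAT, and Pdk4 and Pdk2 together take most of the sum in each library.

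Counted over the 10 genes, all of which passed the filter on low values in each depot, groups did not overlap for 7 in BAT, 3 in sWAT, 5 in isWAT, 0 in ieWAT and 8 in eWAT. Over all genes tested the groups did not overlap for 44.5%, 16.1%, 31.6%, 5.11% and 41.2% in the same depots. Those above all controls were 6 in BAT, 2 in sWAT, 5 in isWAT, 0 in ieWAT and 7 in eWAT, against 6.37%, 3.8%, 12.2%, 3.43% and 21.6% of all genes. Those below all controls were Pdk3 in BAT, Pdk4 in sWAT and Pdk1 in eWAT, with 0 in isWAT and 0 in ieWAT, against 38.1%, 12.3%, 19.6%, 19.4% and 1.68% of all genes. The median change of the 10 genes was 0.37 in BAT, -0.01 in sWAT, 0.12 in isWAT, 0.00 in ieWAT and 0.45 in eWAT, against -0.18, -0.05, -0.03, 0.02 and -0.02 for all genes. These counts rest on the contrast that was used to choose the genes, and nothing is read from them. In isWAT the count of 5 became 8 without knockout replicate 2 and 8 without control replicate 3. In sWAT the count of 3 became 5 without knockout replicate 1 or without knockout replicate 2. In ieWAT the count of 0 became 3 without knockout replicate 3 and 1 without knockout replicate 2.

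A second deposited table of the same 6 eWAT samples, in TPM, gave other values for these genes. There Mpc1 was at 199.9, 201 and 203 TPM in libraries labelled knockout, against 170.5, 22.6 and 277 TPM in control libraries, so the groups overlapped, and Pdk1 was higher rather than lower in libraries labelled knockout (log2 change 0.85). The median SD of log2 values within a group was 0.80 for libraries labelled knockout and 1.48 for controls in the TPM table, against 0.12 and 0.14 in the FPKM table, over 13736 genes.

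Other gene lists differed between the groups beside Mpc1. In BAT, all 12 macrophage genes were lower in knockout libraries without overlap, against 38.1% of all genes; their sums were 107 and 105 CPM in knockout libraries, against 767, 264 and 1224 CPM in control libraries. Sums of 11 fibroblast and progenitor genes in BAT were 446 and 664 CPM in knockout libraries, against 1544, 763 and 2463 CPM in control libraries. The 23 nuclear genes of oxidative phosphorylation were all higher in BAT knockout libraries, 15 without overlap against 6.37% of all genes, with a median change of 0.20. In eWAT, all 10 adipocyte genes rose, with sums of 17757 to 22414 FPKM in libraries labelled knockout and 7524 to 9684 FPKM in control libraries, and 6 of 12 macrophage genes fell, with sums of 5267 to 7373 FPKM in libraries labelled knockout and 8249 to 12603 FPKM in control libraries (limma, adjusted p under 0.05). Sums of 10 endothelial genes were 458 to 593 FPKM in eWAT libraries labelled knockout and 266 to 330 FPKM in control libraries. Adipocyte genes in eWAT thus changed by a median of 1.25, more than any of the 10 genes. In the other depots, endothelial sums were lower in BAT (1005 and 1036 CPM in knockout libraries, against 1132 to 1378 CPM in control libraries), in sWAT (1382 to 1774 CPM in knockout libraries, against 1856 to 1886 CPM in control libraries) and in isWAT (2591 and 2622 CPM in knockout libraries, against 2728 to 3126 CPM in control libraries). In ieWAT, sums of 9 B cell genes were 3217 to 5347 CPM in knockout libraries, against 1193 to 2217 CPM in control libraries, and sums of 12 T and NK cell genes were 75.0 to 98.4 CPM in knockout libraries, against 36.3 to 69.3 CPM in control libraries. What part these differences have in the values of the 10 genes was not tested.

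The level of Mpc1 was therefore also taken relative to 2 lists within each library. Relative to the mean log2 level of the oxidative phosphorylation genes, Mpc1 was higher in knockout libraries by 0.20 in isWAT, 0.46 in BAT and 0.28 in eWAT, without overlap of the groups, and by 0.14 in ieWAT and 0.15 in sWAT, with overlap. Pdk1 by the same measure differed by 0.61 in BAT and by -0.51 in eWAT, both without overlap. Relative to the 10 adipocyte genes, Mpc1 was higher by 0.80 in BAT and 0.34 in isWAT without overlap, but lower by 0.71 in eWAT, again without overlap. By this measure it was higher by 0.14 in ieWAT and 0.10 in sWAT, with overlap. In eWAT, Mpc2, Pdha1, Pdhb, Dlat and Pcx were likewise below controls relative to the adipocyte genes, by 0.33 (Pcx) to 0.83 (Pdhb). The kinases were further below by this measure, with differences from -0.93 (Pdk2) to -1.50 (Pdk1), each without overlap. The carrier and dehydrogenase genes thus stood higher against the oxidative phosphorylation genes in the eWAT libraries labelled knockout. All 10 genes described here stood lower against the adipocyte genes in those libraries.

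**Figure D5:**
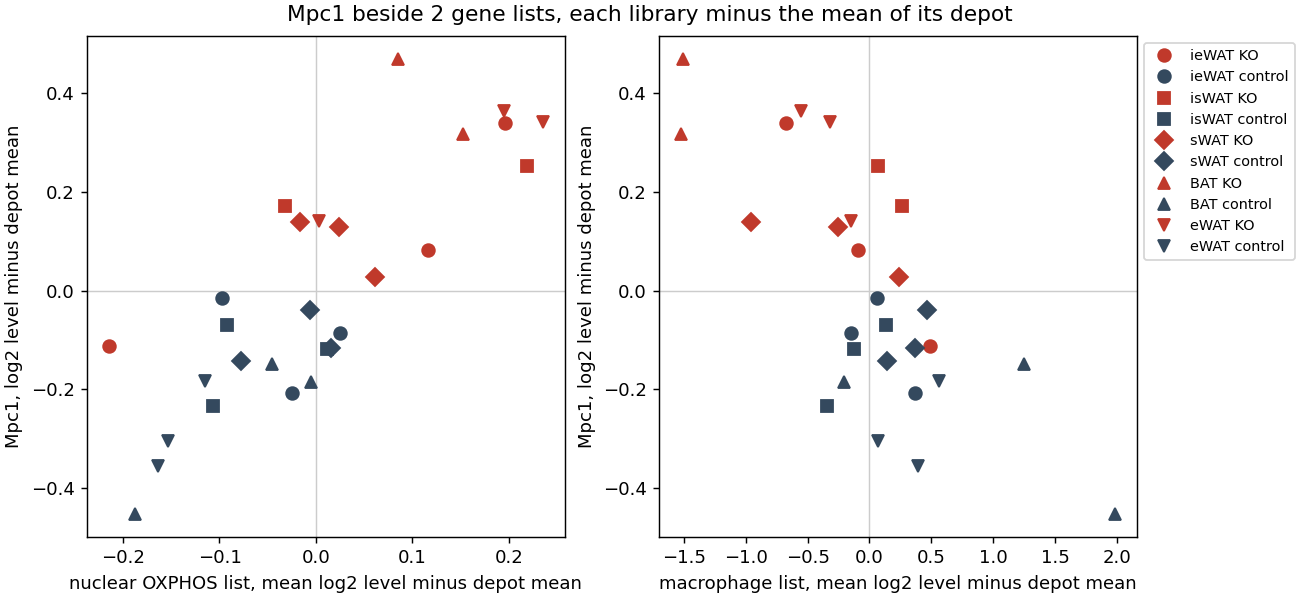
Mpc1 (vertical axis, log2 level) against the mean log2 level of the oxidative phosphorylation genes (left) and of the macrophage genes (right), each library minus the mean of its depot, with knockout libraries in red and control libraries in dark blue. Knockout libraries lie mostly in the upper part of both panels, and the 2 BAT knockout libraries lie farthest to the left in the macrophage panel.

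Among 63 further genes of 5 lists around the same pathway, limma called 0 of 61 tested in BAT, 0 of 60 in sWAT, 0 of 61 in isWAT and 0 of 62 in ieWAT (Benjamini-Hochberg over all genes of the depot, adjusted p under 0.05). The share of all genes called was 0.00755%, 0.0217%, 0.00701% and 0% in these depots. At an unadjusted p under 0.05 they had 15, 3, 5 and 0 list genes, against 19.2%, 9.66%, 13.1% and 2.62% of all genes. On recovered reads edgeR called 0 list genes in each, and DESeq2 called 5, 1, 3 and 0, against 791, 52, 273 and 32 of all genes. In BAT, limma called 9 list genes and 2079 of all genes without control replicate 2. The smallest p-values in BAT were those of Ucp3, an uncoupling protein homologue of muscle and brown fat, at 94.2 ± 14.7 CPM in knockout libraries (n = 2) and 60.6 ± 3.53 CPM in control libraries (n = 3), limma adjusted p = 0.24; of Me3, a mitochondrial malic enzyme that makes pyruvate, at 62 ± 0.063 CPM in knockout libraries and 36.7 ± 7.39 CPM in control libraries, limma adjusted p = 0.24; and of Adm, a hypoxia target, at 3.87 ± 0.27 CPM in knockout libraries and 7.64 ± 1.49 CPM in control libraries, limma adjusted p = 0.24. In sWAT they were those of Bnip3, a mitophagy receptor induced in hypoxia (log2 change 0.24), Cpt1a, which admits fatty acids to mitochondria (-0.40), and Me3 (0.51), with limma adjusted p of 0.45 to 0.47. In isWAT they were those of Bnip3 (0.49), the forkhead factor Foxo1 (-0.34) and Vegfa (-0.42), with limma adjusted p of 0.26 to 0.27. In ieWAT they were those of Acly, which splits citrate for fat synthesis (-0.23), the forkhead factor Foxo3 (-0.26) and Lpin1 (-0.22), each with a limma adjusted p of 1.00.

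In eWAT, 17 of 60 genes rose and 4 fell in libraries labelled knockout, against 10.2% and 4.7% of all genes (14.9% in all). Of the routes for citrate, malate and aspartate, 6 of 14 rose and 3 fell. Slc25a10, the dicarboxylate carrier, averaged 221 ± 25.3 FPKM in libraries labelled knockout and 104.5 ± 19.0 FPKM in control libraries (log2 change 1.09, limma adjusted p = 0.013). Slc25a1, the carrier that exports citrate for fat synthesis, averaged 265 ± 36.8 FPKM in libraries labelled knockout and 139.9 ± 24.0 FPKM in control libraries (0.92, limma adjusted p = 0.019). Pck1, which makes phosphoenolpyruvate for glycerol, averaged 99.1 ± 12.2 FPKM in libraries labelled knockout and 44.9 ± 9.83 FPKM in control libraries (1.14, limma adjusted p = 0.013). Mdh1 (0.60), Cs (0.39) and Mdh2 (0.43), the malate dehydrogenases and citrate synthase, also rose, while the aspartate-glutamate carrier Slc25a12 (-0.60) and the aspartate aminotransferases Got1 (-0.49) and Got2 (-0.40) fell. Of the genes that supply or exchange pyruvate, 2 of 12 rose, Gpt, an alanine aminotransferase (1.21), and Ldha, a lactate dehydrogenase subunit (0.51). Of the complex's partners, 2 of 8 rose, Lias (0.46), which makes its lipoic acid, and Dld (0.46), its dihydrolipoamide dehydrogenase.

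Of the fasting regulators and targets in eWAT, 4 of 15 rose, Angptl4 (0.76), Acadm (0.82), Lpin1 (0.70) and Ucp3 (0.77), and Foxo3 fell (-0.40). Of the list of hypoxia targets and factors, 3 of 11 rose, the targets Bnip3 (1.19) and Vegfa (0.86) and the factor Epas1 (0.49). Pdk1, often counted with the hypoxia targets, was lower in the same libraries. The calls depend on single libraries: of these 21 genes, the count was 0 without knockout replicate 3, 11 without knockout replicate 2, 7 without control replicate 2 and 8 without the filter on low values. All 21 calls stand in libraries in which the adipocyte genes rose by a median of 1.25, and no pathway gene was called in the TPM table.

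Between depots, brown fat stood apart for most of the 10 genes. The tables were normalised separately, so these levels are descriptive, and eWAT is on another scale. In control libraries Mpc1 was highest in BAT (401 to 496 CPM), then sWAT (192 to 207 CPM), isWAT (131 to 147 CPM) and ieWAT (109 to 125 CPM), with no overlap between neighbours. Since sWAT and isWAT are both white fat from under the skin, this order is one of data sets and not of depots alone. The order in knockout libraries was the same, at 685 to 762 CPM in BAT, 217 to 234 CPM in sWAT, 174 to 184 CPM in isWAT and 117 to 160.2 CPM in ieWAT, again with no overlap. In control libraries the BAT mean was 13.2 times the mean of the 3 white CPM depots for Pdk4, 4.31 times for Pdha1, 4.01 times for Pdhb, 3.26 times for Pdk2, 3.03 times for Mpc1, 2.69 times for Dlat, 2.56 times for Mpc2 and 1.57 times for Pdk1. Pdk4 was at 853 to 1439.5 CPM in BAT controls, against 62 to 107.9 CPM in white fat controls. Pcx and Pdk3 ran the other way, at 0.43 and 0.30 times the white mean. Pcx was at 492 to 595 CPM in BAT controls, against 915 to 1619 CPM in white fat controls, and the ranges did not overlap. Pdk1 ranges did overlap, at 38.9 to 58.6 CPM in BAT controls and 23.1 to 44.9 CPM in white fat controls.

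Across the 28 libraries, after each library was set relative to the mean of its group, the genes most like Mpc1 among 11374 compared were Pmpcb (Pearson r 0.85, Spearman rho 0.77), a subunit of the mitochondrial processing peptidase, Pdhb (0.83, 0.78), Uqcrc2 (0.81, 0.79), a core subunit of respiratory complex III, Immt (0.80, 0.72), a protein of the mitochondrial cristae, and Yaf2 (0.77, 0.79). For Pdk4 they were Hacl1 (0.77, 0.73) and Abcd3 (0.72, 0.67), both of peroxisomes, Glo1 (0.74, 0.70), Ptgr2 (0.72, 0.71) and Txnip (0.71, 0.64). Among the 45 pairs of the 10 genes, Mpc2 and Dlat were most alike (r 0.89), then Mpc1 and Pdhb (0.83) and Dlat and Pcx (0.80), while Mpc1 and Mpc2 reached 0.52 and Dlat and Pdk3 were the most opposed (-0.69). These values share libraries, and with them depth and cell makeup, and are given without a p-value.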

How the data were processed

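Bulk RNA-seq of mouse fat was deposited as 7 tables. The authors' tools were Salmon, FastQC, MultiQC and DESeq2 1.38.3, per the submitters' processing notes, which give no roles; the aligner, build and annotation are unstated. The ieWAT, isWAT, sWAT and BAT tables hold CPM as deposited: columns have equal sums and values are whole multiples of 1 read within 0.01 reads, 100% of them, so whole reads were recovered. The deposited eWAT table holds FPKM, and a further deposited eWAT table named as raw counts holds TPM and served as an alternative. Symbols came from GENCODE M21 by Ensembl identifier (92.0% of identifiers matched, 96.0% in ieWAT; unmatched ones held at most 1.46% of a total).

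Each depot was fitted alone on log2(value + 1) with limma 3.58.1 in R 4.3.3 (trend and robust eBayes, two-sided). Genes at 1 or more in at least the smaller group's number of libraries were kept. Benjamini-Hochberg adjustment ran over all of them, with a threshold of 0.05. The planned count test was replaced because values were deposited as CPM or FPKM, and was kept as an alternative where whole reads were recovered. The p-values measure only the spread between these libraries. The fits were checked on simulated data. Alternatives were edgeR 4.0.16 and DESeq2 1.42.0 on recovered reads, TMM scaling, pseudocounts of 0.5 and 0.1, no filter or a minimum of 5, plain eBayes, a block for the replicate number, and leaving out single libraries or those with muscle transcripts. The 10 genes and the lists were chosen with earlier results of these data known. Named are all 10 genes, further pathway genes past the threshold or else the 3 with the smallest p in a depot, and the 5 genes most like Mpc1 and Pdk4; Acta1, Ckm, Fgf13, Adipoq and Ucp1 were used as checks.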

Additional observations from a re-analysis of the deposited data

Results flagged for a closer look

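Pdk1 differed in direction between depots. All knockout libraries were above all controls in isWAT and BAT, and all libraries labelled knockout were below all controls in eWAT. The log2 change in isWAT exceeded that in eWAT by 0.54, and the change in BAT exceeded that in eWAT by 1.03. These differences were not tested. The eWAT direction is from the FPKM table and turned in the TPM table of the same samples. In eWAT, unlike the other sets, Fgf13 groups overlapped, so the labels were not borne out there.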

How the results depend on the processing

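Directions of the 10 genes were kept for 50 of 50 values without a filter, with either pseudocount and with plain eBayes, for 49 of 50 with TMM scaling and for 255 of 280 when single libraries were left out; Mpc1 kept its direction in each of these. The log2 change of Mpc1 in BAT was 0.86 with TMM, 0.85 with edgeR, 0.85 with DESeq2 and 0.92 without the 3 libraries with muscle transcripts (this last alternative was chosen after seeing the data and left the higher knockout library against the lowest control), and in eWAT 0.96 in the TPM table. With single libraries left out it ran from 0.56 to 0.73 in BAT, 0.18 to 0.23 in sWAT, 0.31 to 0.39 in isWAT, 0.09 to 0.31 in ieWAT and 0.52 to 0.63 in eWAT. The number of the 10 genes without overlap ran from 7 to 9, 3 to 5, 5 to 8, 0 to 3 and 8 to 9 in the same depots; without sWAT knockout replicates 2 and 3 it was 10 (1 library against 3, assumed to vary like the others), and in the TPM values it was 1.

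Genes called in ieWAT (0) numbered 32 with DESeq2; in isWAT (1), 273 with DESeq2, 3 without a filter and 0 with plain eBayes; in sWAT (3), 52 with DESeq2, 1 with edgeR, 5 without a filter or with a pseudocount of 0.1 and 765 without knockout replicates 2 and 3; in BAT (1), 791 with DESeq2, 7 without a filter and 0 with edgeR, plain eBayes, a pseudocount of 0.1 or a minimum of 5; in eWAT (2041), 544 without a filter and 1 in the TPM table. With single libraries left out they ran from 0 to 2079 in BAT (the most without control replicate 2), 0 to 92 in sWAT, 0 to 12 in isWAT, 0 to 1 in ieWAT and 10 to 1834 in eWAT (the fewest without knockout replicate 3). Further pathway genes called were 3 in isWAT and 1 in sWAT with DESeq2, 8 in sWAT without knockout replicates 2 and 3, 5 in BAT with DESeq2, and in eWAT (21) 8 without a filter and 0 in the TPM table; with single libraries left out they ran from 0 to 9 in BAT and from 0 to 20 in eWAT. The cause of these shifts was not tested.

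No sign was seen that replicate numbers pair the samples: same-numbered libraries did not deviate together in any depot throughout (correlations of -0.56 to 0.39). With so few libraries a group, deviations from the group mean depend on each other, so this check cannot exclude pairing. With the replicate number as a block, limma called 0 genes in BAT, 1 in sWAT, 7 in isWAT, 1 in ieWAT and 0 in eWAT, and 0 pathway genes in eWAT.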
